A study of Mus musculus with 6 samples.

Results

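Basement membrane genes were followed in mouse lung cells 3 days after the complement protein C1q had been placed in the trachea. The genes were 10: Col4a1, Col4a2, Col4a3 and Col4a4 (collagen IV chains), Lama3, Lama4 and Lama5 (laminin alpha chains), Nid1 and Nid2 (nidogens) and Hspg2 (perlecan). They were taken by symbol from a table of 26890 genes. All 10 were listed, and all 10 were among the 13473 genes with counts high enough to test. C1q animals (n = 3 libraries) had received 20 µg of C1q per mouse, and control animals (n = 3 libraries) were labelled saline. Every sample was labelled as lung of wild-type C57BL/6 mice at day 3. The lungs had been minced and digested, and the cells of the middle layer of a Percoll gradient were lysed for sequencing of 5′ transcript ends. Age and sex of the animals were not given in the sources used here. The labels do not state that each library came from a separate animal, so p-values measure the spread between these libraries, which may be partly technical.

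A basement membrane is a thin sheet of matrix under epithelial and endothelial cells and around muscle cells. Laminin trimers form a polymer on the cell surface, collagen IV trimers form a covalently linked network, and nidogens and perlecan bridge them. In the lung alveolus the sheets of the epithelium and of the capillary are fused in the thin part of the barrier, where gas crosses. Collagen IV of the α1 and α2 chains is found in nearly all basement membranes, while the α3 and α4 chains, joined with α5, occur in a few organs including the lung alveolus and the kidney glomerulus.

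The libraries held 2227619 to 3650793 counts each. Levels are given as CPM, the counts of a gene relative to a fixed library size, after scaling by TMM, a method that matches the bulk of genes between libraries. At this depth 3 counts were worth 0.830 to 1.354 CPM. Whether counts grow with transcript length was not given in the sources used here, so levels were compared between libraries and not between genes. The exception is the rank of Nid2 among the genes tested, given to show how little of it was counted. Lung markers were present: summed alveolar type 2 markers were 32179 to 34498 CPM in C1q libraries and 23685 to 44988 CPM in saline libraries. Summed endothelial markers were 4238 to 5244 CPM in C1q libraries and 4862 to 5551 CPM in saline libraries, which overlapped. The log2 fold change of C1q over saline was negative for 11 of 11 endothelial markers (median -0.20) and 5 of 5 general capillary markers (median -0.21). It was negative for 4 of 5 aerocyte capillary markers, but positive for 3 of 5 large vessel and 4 of 6 lymphatic endothelial markers. The part of these markers in the basement membrane genes was not tested. In each of the 18 marker lists, 0 of the listed genes were at 0 in all libraries. Because each library came from a mixture of cell types, fewer cells of a type and less RNA per cell cannot be told apart.

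The collagen IV genes lie in head-to-head pairs, in which the chains of each pair are read in opposite directions from adjoining starts. On GRCm38 (GENCODE M21), Col4a1 spans 11198423 to 11312826 on the minus strand of chromosome 8 and Col4a2 spans 11312805 to 11449287 on the plus strand. Their first exons overlap by 22 bases. Col4a4 spans 82448423 to 82586849 on the minus strand of chromosome 1 and Col4a3 spans 82586921 to 82722059 on the plus strand, leaving 71 bases between the starts. These sequences are shown because a 5′-end library reads transcripts at the starts they separate. They are RefSeq's, on GRCm38.p6, written 5′ to 3′. Capitals mark matches, on either strand, to the GC box searched as GGGCGG, to the CCAAT box under its own letters, and to the TATA box, for which the string used was TATAAA. The first is chr8:11312805-11312826 on the plus strand, the shared noncoding stretch of the Col4a1 and Col4a2 first exons. The second is chr1:82586850-82586920 on the minus strand, the gap read from the Col4a3 side towards Col4a4.
Col4a1-Col4a2 shared start: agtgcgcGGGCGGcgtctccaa
Col4a4-Col4a3 gap: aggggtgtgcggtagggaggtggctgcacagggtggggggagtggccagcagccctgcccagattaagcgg

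The shared start held 1 GC box, and the gap held none of the 3 motifs in its 71 bases. Among the 71 bases before the start of 32851 RefSeq promoters, 20.7% held a GC box, 13.3% a CCAAT box and 4.41% a TATA box. The gap was 69.0% G and C, against a median of 54.9% in those windows. Promoter sequences were matched for 6 of the 10 genes.

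Other promoters are shown for the genes with a start of their own that are described below together: Lama5 and Hspg2, whose levels followed each other most closely, and Nid1. Each is the 150 bases before the first annotated start, outside any exon of the gene, at chr13:13437401-13437550 (plus strand) for Nid1, chr4:137468619-137468768 (plus strand) for Hspg2 and chr2:180225860-180226009 (minus strand) for Lama5.
Nid1 upstream: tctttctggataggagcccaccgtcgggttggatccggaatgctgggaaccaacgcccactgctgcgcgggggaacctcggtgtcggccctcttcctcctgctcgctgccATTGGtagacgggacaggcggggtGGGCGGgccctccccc
Hspg2 upstream: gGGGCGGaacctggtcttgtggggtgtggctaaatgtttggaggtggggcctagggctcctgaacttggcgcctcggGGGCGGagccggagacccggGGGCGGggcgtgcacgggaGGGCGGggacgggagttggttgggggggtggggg
Lama5 upstream: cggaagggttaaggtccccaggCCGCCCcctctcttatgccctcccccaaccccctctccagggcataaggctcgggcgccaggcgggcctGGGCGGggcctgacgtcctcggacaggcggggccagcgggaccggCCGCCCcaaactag

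The Hspg2 window held 4 GC boxes, the Lama5 window 3 and the Nid1 window 1, and Nid1 also had a CCAAT box on the opposite strand. No motif overlapped another. In windows of 150 bases, 28.6% of RefSeq promoters held a GC box and 24.5% a CCAAT box. The Hspg2, Lama5 and Nid1 windows were 72.7%, 73.3% and 68.0% G and C, against a median of 54.0% in those windows. A match describes the letters and is not evidence that a factor was bound.

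C1q changed the transcript level of 0 of the 10 basement membrane genes by the test across all genes (edgeR quasi-likelihood, Benjamini-Hochberg over 13473 genes). Adjusted p-values ran from 0.622 for Col4a1 to 0.985 for Col4a3. Over all genes the same test called 4 higher (0.0297%) and 0 lower (0%). Among the 10, 0 had an unadjusted p under 0.05, where 8.16% of all genes did, and DESeq2 and limma-voom also called 0. The log2 fold changes of C1q over saline were positive for 7 and negative for 3, with a median of 0.12, against -0.012 for all genes tested. For 8 genes the C1q and saline libraries overlapped. All 3 C1q libraries lay above all 3 saline libraries for 2 genes, Col4a1 and Nid2, an arrangement seen in 8.12% of all genes, and below them for 0, where 5.96% of all genes were.

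A miss of the threshold does not show equal levels, so the intervals matter. The 95% interval of the log2 fold change included 0 for all 10 genes. For the 9 genes other than Nid2, the intervals ran from a 0.662-fold to a 1.61-fold level in C1q libraries. A 2-fold rise and a 2-fold fall were both outside the interval for these 9. Nid2 was measured from few counts, and its interval reached 2.18-fold.

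**Figure D1:**
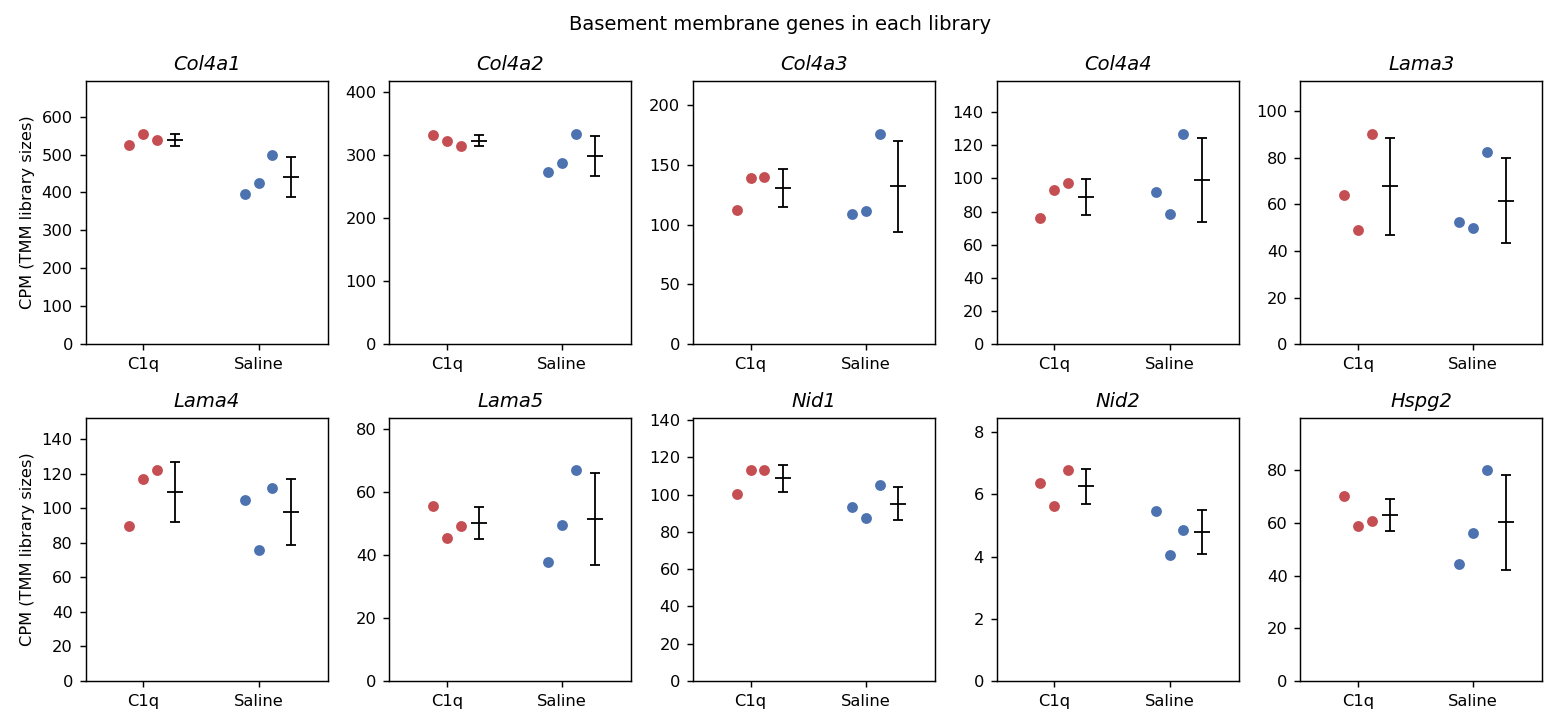
CPM (TMM library sizes) of the 10 basement membrane genes, with C1q libraries on the left and saline libraries on the right of each panel. Each point is 1 library in replicate order, and bars are mean ± SD (n = 3). Col4a1 and Nid2 are the panels without overlap, and saline replicate 3 is the highest saline library in 9 panels.

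Col4a1 encodes the α1 chain, which makes up most of each common collagen IV trimer. It stood at 524, 555 and 537 CPM in C1q replicates 1 to 3, against 396, 426 and 498 CPM in saline replicates 1 to 3. Every C1q library lay above every saline library, and the C1q libraries were closer together than the saline ones (539 ± 15.5 and 439.9 ± 52.0 CPM; SD, n = 3 each). This gave a log2 fold change of 0.29 ± 0.15 (SE), with a 95% interval of -0.039 to 0.62 and an unadjusted p of 0.0779 from edgeR (adjusted p = 0.622). With 1 library left out it was 0.22 to 0.39.

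Col4a2 encodes the α2 chain of the same trimer. Its levels were 332, 322 and 315 CPM in C1q libraries, against 273, 288 and 334 CPM in saline libraries. The C1q libraries sat above saline replicates 1 and 2 but not above replicate 3, the highest of all 6. Its log2 fold change was 0.11 ± 0.15 (edgeR adjusted p = 0.837), with an interval of -0.21 to 0.44.

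Col4a3 and Col4a4 encode chains of the α3α4α5 trimer, which in the lung alveolus is made by the flat type 1 epithelial cells. Col4a3 stood at 112, 139 and 139.9 CPM in C1q libraries, against 109, 111 and 176 CPM in saline libraries. Saline replicate 3 alone was above the C1q range. Col4a4 stood at 76.3, 92.8 and 97.1 CPM in C1q libraries, against 91.6, 78.5 and 127 CPM in saline libraries, again with saline replicate 3 highest.

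The log2 fold change of Col4a3 was -0.021 ± 0.20 and that of Col4a4 -0.16 ± 0.19 (edgeR adjusted p = 0.985 and 0.824). Without saline replicate 3 they were 0.24 and 0.055, both positive. Col4a3, with a 95% interval of -0.47 to 0.43 over all libraries, was also positive without C1q replicate 1 (0.081). Summed type 1 cell markers were 3218 to 3301 CPM in C1q libraries and 3081 to 3604 CPM in saline libraries. Saline replicate 3 stood at 3304 CPM for these markers, below saline replicate 2 at 3604 CPM and above every other library. Summed general epithelial markers (Epcam, Cdh1 and 3 keratins) did not overlap, at 813 to 942 CPM in C1q libraries and 658 to 761 CPM in saline libraries. Among single genes, 8.12% had all C1q libraries above all saline libraries. The log2 fold change was positive for 5 of 5 general epithelial and 5 of 7 type 2 markers. It was positive for 3 of 8 type 1 and 1 of 4 tested airway markers. The part of these markers in the epithelial chain genes was not tested.

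Within a library the balance of each collagen IV pair can be read without any scaling. The ratio of Col4a2 to Col4a1 counts was 0.634, 0.581 and 0.587 in C1q libraries, against 0.689, 0.677 and 0.672 in saline libraries. All C1q libraries were lower, by a log2 difference of -0.18, or 0.883-fold. The counts behind these ratios were 1201 and 1895, 914 and 1573, and 698 and 1189 (Col4a2 and Col4a1) in C1q replicates 1 to 3. In saline replicates 1 to 3 they were 850 and 1233, 712 and 1052, and 895 and 1332.

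As a share of the counts of both genes, Col4a2 took 38.8%, 36.8% and 37.0% in C1q libraries and 40.8%, 40.4% and 40.2% in saline libraries. The exact 95% binomial intervals, which cover counting error only, were 37.1% to 40.5% in C1q replicate 1 and 38.1% to 42.3% in saline replicate 3. The intervals of this pair, the nearest between the groups, overlapped. In the pair farthest apart, C1q replicate 2 had 34.9% to 38.7% and saline replicate 1 had 38.7% to 43.0%, which met only at their ends. Overlap of intervals does not by itself show that a difference is counting error. The exact permutation test, two-sided, gave p = 0.1, the smallest value that 3 against 3 allows, and 0.250 adjusted over the 5 ratios examined.

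The ratio of Col4a4 to Col4a3 was also lower in every C1q library. It was 0.681, 0.668 and 0.694 in C1q libraries, against 0.838, 0.711 and 0.722 in saline libraries, a log2 difference of -0.15 (exact permutation p = 0.1, adjusted 0.250). Without saline replicate 1, the highest, the difference was -0.074. To set both against other genes, 291 head-to-head pairs of tested protein-coding genes with starts within 1000 bases and a mean count of at least 50 were taken, a comparison chosen after these ratios were seen. The ratio did not overlap between the groups in 34 of them (11.7%), both collagen IV pairs included. The median size of the log2 difference over all 291 was 0.21, larger than in either collagen IV pair. The pairs were not matched for counts, and counting error weighs more at low counts. The share and the median therefore do not show what is usual at the counts of the collagen IV genes.

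Because the Col4a1 and Col4a2 first exons share 22 bases and strand handling of the counts was not given in the sources used here, reads inside that stretch cannot be told apart between the genes. The summed Col4a3 and Col4a4 counts were 0.220, 0.264 and 0.278 of the summed Col4a1 and Col4a2 counts in C1q libraries, against 0.300, 0.265 and 0.365 in saline libraries. These ranges overlapped, with a log2 difference of -0.28 (exact permutation p = 0.200, adjusted 0.250). It was -0.16 without saline replicate 3 and -0.18 without C1q replicate 1.

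**Figure D2:**
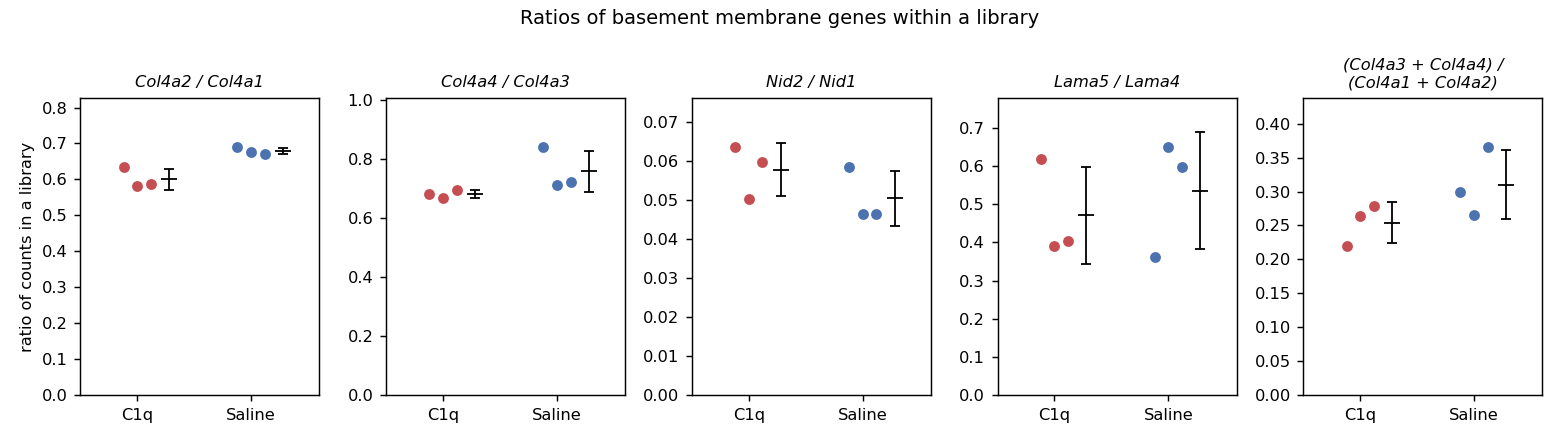
Ratios of counts between basement membrane genes within each library, with C1q on the left and saline on the right. Points are libraries and bars are mean ± SD (n = 3). The Col4a2 to Col4a1 and Col4a4 to Col4a3 ratios do not overlap between groups, with every C1q library lower.

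Laminin alpha chains decide which receptors a laminin trimer binds, and each of the 3 genes has its own main sources. Lama4, a chain of endothelial and mesenchymal laminins, stood at 89.9, 117 and 122 CPM in C1q libraries, against 105, 76.1 and 112 CPM in saline libraries. C1q replicates 2 and 3 were above all saline libraries and C1q replicate 1 was within their range. The log2 fold change was 0.16 ± 0.19 (edgeR adjusted p = 0.821), and 0.015 without saline replicate 2.

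Lama5, the chain of the laminins of mature epithelial and vascular basement membranes, stood at 55.6, 45.5 and 49.2 CPM in C1q libraries. In saline libraries it stood at 37.9, 49.4 and 66.9 CPM. The C1q values all fell inside the saline range, and the log2 fold change was -0.031 ± 0.21 (edgeR adjusted p = 0.978). It was 0.21 without saline replicate 3 and -0.21 without saline replicate 1.

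Lama3 encodes the alpha chain of an epithelial laminin that anchors cells to the sheet. It stood at 63.9, 49.0 and 90.3 CPM in C1q libraries, against 52.4, 49.8 and 82.5 CPM in saline libraries, with replicate 3 high in both groups. The log2 fold change was 0.13 ± 0.25 (edgeR adjusted p = 0.899), and -0.11 without C1q replicate 3. Replicate numbers are only names and do not tie libraries of the groups together. The ratio of Lama5 to Lama4 counts was 0.618, 0.390 and 0.404 in C1q libraries, against 0.361, 0.649 and 0.597 in saline libraries, and overlapped (log2 difference -0.17, exact permutation p = 0.900, adjusted 0.900). That difference was -0.013 without saline replicate 2 and -0.44 without saline replicate 1.

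The linker genes did not pass the test either. Nid1 encodes nidogen-1, which joins laminin to collagen IV. It stood at 100.1, 113 and 113 CPM in C1q libraries, against 93.2, 87.4 and 105 CPM in saline libraries, where the highest saline library exceeded the lowest C1q library. The log2 fold change was 0.19 ± 0.15 (edgeR adjusted p = 0.725), with an interval of -0.13 to 0.51.

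Nid2, the paralogue of Nid1, was near the lower limit of the measurement, with a mean CPM above only 9.58% of the genes tested. Its counts were 23, 16 and 15 in C1q libraries, against 17, 10 and 13 in saline libraries. Scaled, these were 6.36, 5.64 and 6.77 CPM in C1q libraries and 5.47, 4.05 and 4.86 CPM in saline libraries, without overlap. Nid2 had a log2 fold change of 0.37 ± 0.34 (edgeR adjusted p = 0.762), with an interval of -0.38 to 1.13. The end of Nid2 overlaps the end of Rtraf, on the opposite strand, by 437 bases. The ratio of Nid2 to Nid1 averaged 0.0578 ± 0.00690 in C1q libraries and 0.0504 ± 0.00713 in saline libraries (SD, n = 3 each; exact permutation p = 0.200, adjusted 0.250).

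Hspg2 encodes perlecan, a large heparan sulphate proteoglycan that holds growth factors in the sheet. It stood at 70.0, 58.6 and 60.5 CPM in C1q libraries, against 44.4, 56.3 and 79.9 CPM in saline libraries, so that saline libraries held both the lowest and the highest value. Hspg2 had a log2 fold change of 0.071 ± 0.21 (edgeR adjusted p = 0.940). Dropping saline replicate 1 made it -0.11, and dropping saline replicate 3 made it 0.33.

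**Figure D3:**
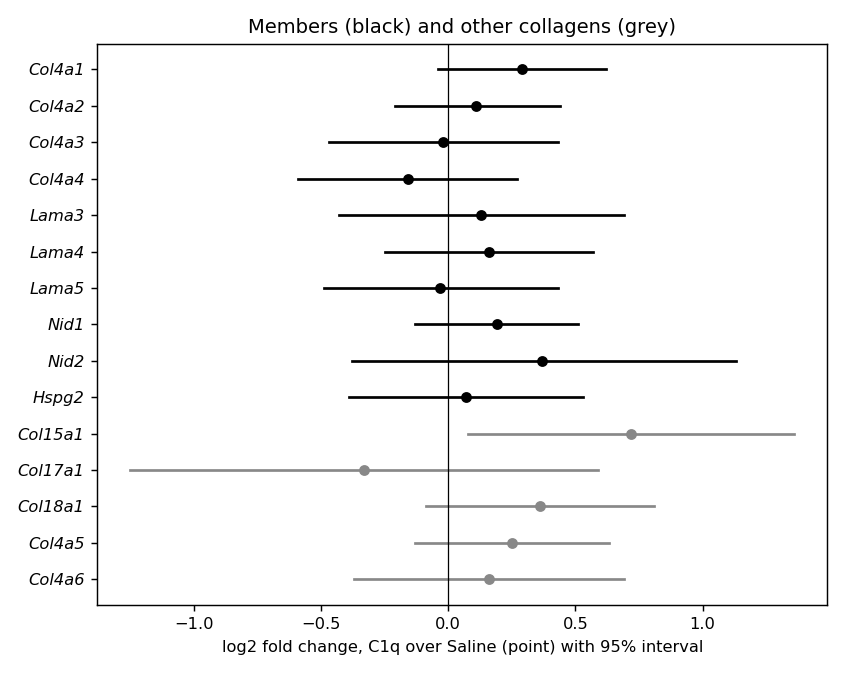
Log2 fold change of C1q over saline with its 95% interval, for the 10 members (black) and for other collagens of the basement membrane zone (grey). Every black interval crosses 0, and Nid2 has the widest of them, from -0.38 to 1.13.

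Within the saline group, the same library was often the highest. Saline replicate 3 was the highest saline library for 9 of the 10, the exception being Nid2. It was the highest saline library for 38.6% of all genes tested, and it was also the library with the most genes detected, 23259 against 20520 to 21749 in the others. It was the highest of all 6 libraries for 5 genes, Col4a2, Col4a3, Col4a4, Lama5 and Hspg2. Saline replicate 1 was the lowest of all 6 for 5 genes, Col4a1, Col4a2, Col4a3, Lama5 and Hspg2. Without saline replicate 3 the median log2 fold change of the 10 was 0.26 and all 10 were positive, and 0 passed the edgeR test. The same median was 0.041 without saline replicate 1 (6 positive) and 0.026 without saline replicate 2 (7 positive).

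**Figure D4:**
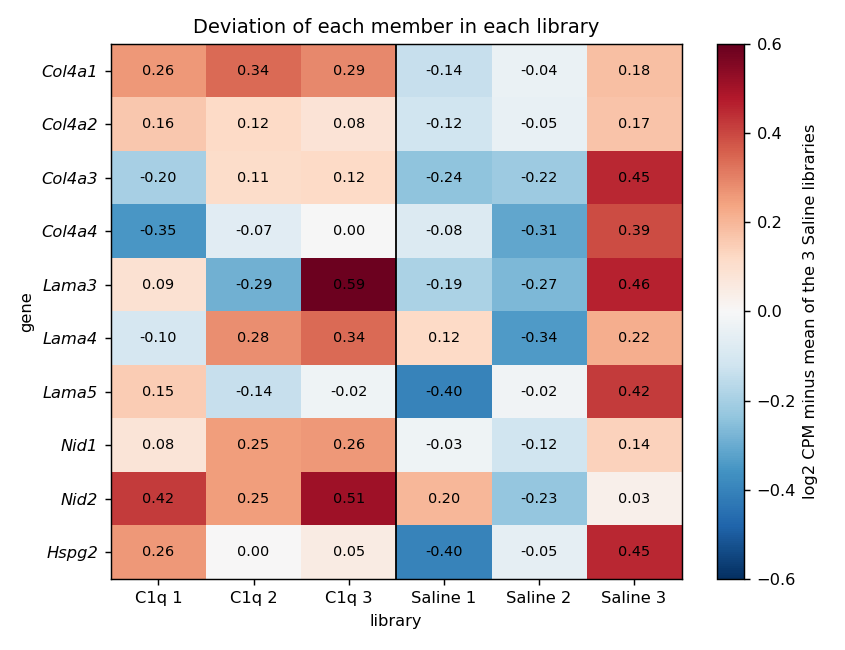
Log2 CPM of each member in each library, minus the mean of the 3 saline libraries for that gene, with C1q libraries left of the line and saline libraries right of it. Red is higher and blue is lower, and the saline replicate 3 column is above 0 for every member. It is highest for Col4a3, Col4a4, Lama3, Lama5 and Hspg2, at 0.39 to 0.46, against 0.031 (Nid2) to 0.22 (Lama4) for the rest.

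Likeness of pattern was taken as the root mean square distance between centred log2 CPM values over the 6 libraries, among 7735 other genes with a mean of at least 20 CPM. Hspg2 and Lama5 were each other's nearest gene (rank 1 of 7735, distance 0.0597), followed for both by Hnrnpd. Col4a1 lay nearest to Pdzd8, Rabgef1 and Rdh14, with Nid1 at rank 57 and Col4a2 at rank 84. Col4a2 lay nearest to St6gal1, Pura and Heyl, with Col4a1 at rank 188 and Nid1 at rank 201. The genes nearest to Nid1 were Eif4g2, Hdlbp and Clk4, with Col4a1 at rank 150 and Col4a2 at rank 228. Lama4 lay nearest to Togaram1, Lnpep and Rnf150, with Nid1 as its closest member at rank 267. Distances between other members varied widely. Among the genes ranked for Hspg2, Col4a2 was at 123 and Col4a1 at 341, and among those for Lama5, Col4a2 was at 188. Far apart were Hspg2 (4667) and Lama5 (4928) among the genes ranked for Lama4. The same held for Lama3 among those for Col4a2 (5909) and Col4a4 among those for Col4a1 (4228). Ranks were taken for Col4a1, Col4a2, Nid1, Hspg2, Lama4 and Lama5 only, so Col4a3 and Col4a4 were not ranked against each other. With 6 libraries of shared depth and scaling, these ranks are a description only.

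The rest of the basement membrane machinery was read from 6 lists holding 79 genes, of which 72 were tested. By edgeR over all genes, 0 of the 72 passed, against the background of 0.0297% given above. At an unadjusted p under 0.05 there were 15 higher and 0 lower, against 4.22% and 3.94% of all genes tested. DESeq2 called 3 (Mmp2, Bgn and Mmp19, all higher), against 0.230% of all genes higher and 0.00742% lower, and limma-voom called 0, against 0.0223% higher and 0% lower. All C1q libraries lay above all saline libraries for 19 of the 72 and below them for 2, against 8.12% and 5.96% of all genes tested. The log2 fold change was positive for 72.2% of them and for 48.2% of all genes tested.

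Among 5 tested collagens of the basement membrane zone other than the members, 4 had a positive log2 fold change and the median was 0.25. Col15a1, whose product links basement membranes to the matrix below, stood at 16.0, 20.8 and 10.8 CPM in C1q libraries, against 8.36, 9.31 and 11.6 CPM in saline libraries (log2 fold change 0.72 ± 0.29, edgeR adjusted p = 0.602). For Col18a1, the source of endostatin, the value was 0.36 ± 0.20 (adjusted 0.641). Col4a5, the partner of Col4a3 and Col4a4, averaged 64.3 ± 4.30 CPM in C1q libraries and 53.9 ± 11.0 CPM in saline libraries (log2 fold change 0.25 ± 0.17, edgeR adjusted p = 0.693).

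The 7 other laminin chains tested had 5 positive log2 fold changes and a median of 0.12. Lamb3, which encodes a beta chain of epithelial laminins, had a log2 fold change of 0.15 ± 0.16. For Lamc1, which encodes the gamma chain of most laminins, the log2 fold change was 0.23 ± 0.15, and for Lamb2, a beta chain of vascular and muscle laminins, it was -0.16 ± 0.16 (edgeR adjusted p = 0.683 and 0.787).

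The list of other basement membrane glycoproteins and proteoglycans was more uneven, with 11 of 18 tested genes positive and a median of 0.16. All C1q libraries lay above all saline libraries for 7 of the 18 and below them for 1, against 8.12% and 5.96% of all genes. Bgn, a small proteoglycan also found in interstitial matrix, averaged 1000.2 ± 69.6 CPM in C1q libraries and 615 ± 42.8 CPM in saline libraries (SD, n = 3 each). Sparc, a collagen-binding glycoprotein that acts as a collagen IV chaperone in flies, stood at 2675, 2064 and 2466 CPM in C1q libraries, against 1663, 1478 and 1497 CPM in saline libraries, without overlap. The log2 fold changes were 0.70 ± 0.15 for Bgn, 0.64 ± 0.16 for Sparc and 0.57 ± 0.17 for Fbln1, a matrix glycoprotein (edgeR adjusted p = 0.277, 0.410 and 0.511). Summed fibroblast markers were 6826 to 7759.8 CPM in C1q libraries and 5539.7 to 7242 CPM in saline libraries. The median log2 fold change of these markers was 0.41, with 9 of 10 above 0 and 0 passing the edgeR test. Dcn and Npnt belong both to these markers and to the 18 genes, so the 2 sets are not independent. The part of the markers in these values was not tested.

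Enzymes and chaperones that fold, export and crosslink collagen IV, most of which also serve other collagens, were positive in 13 of 17 tested genes, with a median of 0.16. Colgalt1, which adds galactose to collagen, averaged 131 ± 7.96 CPM in C1q libraries and 97.9 ± 14.6 CPM in saline libraries. Its log2 fold change was 0.42 ± 0.16, that of P4hb, a subunit of prolyl 4-hydroxylase, 0.39 ± 0.15, and that of Serpinh1, the collagen chaperone HSP47, 0.31 ± 0.14 (edgeR adjusted p = 0.598, 0.598 and 0.606). Pxdn, the peroxidase that forms the sulfilimine crosslink of collagen IV, stood at 95.1, 120.3 and 113 CPM in C1q libraries, against 110.3, 105 and 136 CPM in saline libraries. Pxdn was picked for its role after its value was seen, and its log2 fold change was -0.10 ± 0.16.

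Receptors for the sheet had 9 positive values among 14 tested and a median of 0.080, which was -0.020 without saline replicate 2. Itga7, a laminin-binding integrin of muscle cells, averaged 13.9 ± 2.89 CPM in C1q libraries and 7.55 ± 3.16 CPM in saline libraries (log2 fold change 0.87 ± 0.33, edgeR adjusted p = 0.598). The syndecans Sdc4 (0.33 ± 0.15) and Sdc1 (0.36 ± 0.16) followed, with edgeR adjusted p = 0.605 and 0.606.

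Enzymes able to cut basement membrane components had the highest median of the 6 lists, 0.59, with 10 of 11 tested genes positive. Mmp2, the type IV collagenase known as gelatinase A, stood at 202, 138 and 227 CPM in C1q libraries, against 105, 77.7 and 95.6 CPM in saline libraries. Mmp14, the membrane protease that activates pro-Mmp2, stood at 132, 94.2 and 126 CPM in C1q libraries, against 77.2, 69.2 and 81.1 CPM in saline libraries. Mmp19, whose known substrates include collagen IV, laminin and nidogen, stood at 86.0, 68.4 and 67.7 CPM in C1q libraries, against 39.5, 44.1 and 36.2 CPM in saline libraries. These 3 were named for the smallest p-values of the list, and none overlapped between groups. Over the whole list, all C1q libraries lay above all saline libraries for 5 of 11 genes (8.12% of all genes), and 6 overlapped. For Mmp2, Mmp14 and Mmp19 the log2 fold changes were 1.02 ± 0.20, 0.63 ± 0.17 and 0.89 ± 0.16 (edgeR adjusted p = 0.245, 0.410 and 0.231). Summed macrophage markers were 2556 to 3028 CPM in C1q libraries and 942 to 2258 CPM in saline libraries, without overlap. The lowest was saline replicate 3. Of these markers 5 of 6 were above 0 in log2 fold change, with a median of 0.33. Among the fibroblast markers given above, 9 of 10 were above 0, with a median of 0.41. The part of either marker set in these values was not tested. These lists were drawn up with earlier results of these data known, and a difference between them and the 10 members was not tested.

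**Figure D5:**
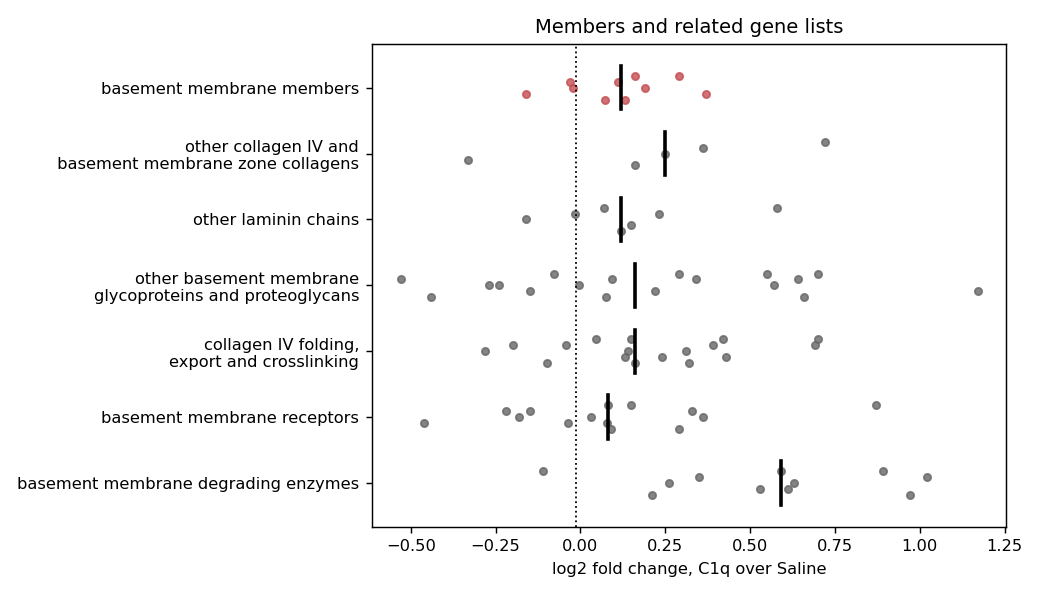
Log2 fold change of C1q over saline for each tested gene (points) in the 10 members and 6 related lists, with the median of each list as a black bar and the median of all genes tested (-0.012) as a dotted line. The members span -0.16 to 0.37 around a median of 0.12, and the degrading enzymes lie around 0.59.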

How the data were processed

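The values deposited by the authors were whole-number counts per gene symbol and library, without normalization. The tools cutadapt (2.1.0) and Bowtie2 (2.4.2) and the GRCm38 build appear in the submitters' processing notes. The counter, annotation, strand handling and use of molecular identifiers were not given in the sources used here. Groups came from the treatment label, and replicates were numbered 1 to 3 in deposition order, which pairs nothing. In all 6 samples the free text on treatment mentions C1q and not saline, so the saline group rests on that label. No 2 libraries agreed within sampling noise: over the 15 pairs, chi-square per degree of freedom was 4.92 to 16.02.

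Genes were kept by filterByExpr (13473 of 26890, holding 98.2% to 99.2% of counts), scaled with TMM factors and fitted in edgeR 4.0.16 (glmQLFit, glmQLFTest, two-sided, treatment only, adjusted p threshold 0.05). Standard errors and 95% intervals came from the fold change and F statistic. The test was checked on simulated data. Ratios were compared by an exact permutation test (scipy 1.17.1), which cannot go below 0.1. Alternatives covered scaling, filters, DESeq2 1.42.0, limma-voom (limma 3.58.1) and leaving out each library. The members and lists were chosen with earlier results of these data known. All members were named, and from each list the 3 tested genes with the smallest p-value, Lamb3 and Pxdn being added after their values were seen; 1 gene of the laminin list is not reported here. Distances used log2 CPM with a prior count of 2.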

Additional observations from a re-analysis of the deposited data

How the results depend on the processing

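In all 13 alternatives 0 members passed in either direction, and 117 of 129 member log2 fold changes kept their sign. The sign turned in 12. Col4a3 was 0.019 with no filter on low counts and 0.0090 with limma-voom, and Lama5 was 0.0086 and 0.0090 there. With 1 library left out, Col4a3 ran from -0.14 to 0.24, Col4a4 from -0.30 to 0.055, Lama3 from -0.11 to 0.40, Lama5 from -0.21 to 0.21 and Hspg2 from -0.11 to 0.33. The 5 ratios kept their direction with any 1 library left out and with 0.5 added to each count, but not their size. With 1 library left out, the log2 difference ran from -0.22 to -0.16 for Col4a2 to Col4a1, -0.19 to -0.074 for Col4a4 to Col4a3, -0.39 to -0.16 for the summed collagen IV ratio, -0.44 to -0.013 for Lama5 to Lama4 and 0.13 to 0.31 for Nid2 to Nid1. Over all genes the number called higher was 4, but 158 with no filter, 31 with DESeq2 and 0 to 9 with 1 library left out. The number called lower was 0, but 215 with no filter, 1 with DESeq2 and 0 to 1 with 1 library left out. The cause was not tested. In the related lists, edgeR with no filter called 2 glycoprotein and proteoglycan genes (Frem1 and Bgn) of 19. It also called 4 degrading enzymes (Mmp2, Mmp14, Mmp19 and Plau) of 13, and 0 in the other lists. That setting called 158 genes higher and 215 lower of 26890. The stricter filter left Nid2 without a value. No paired analysis was possible because the labels give the groups no shared replicate numbers. At 10 to 23 counts a library, depth limited Nid2 most.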

Other observations

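A further head-to-head pair, Col4a6 and Col4a5, was added after the data were seen. The ratio of Col4a6 to Col4a5 counts was 0.263, 0.176 and 0.217 in C1q libraries and 0.224, 0.312 and 0.188 in saline libraries. The groups overlapped, with a log2 difference of -0.13 (exact permutation p = 0.600).

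The median log2 fold change of the related lists also moved with 1 library left out. It ran from 0.15 to 0.40 for the other collagens, 0.023 to 0.22 for the other laminin chains, 0.12 to 0.26 for the glycoproteins and proteoglycans, and -0.020 to 0.20 for the receptors. For the folding and crosslinking genes it ran from 0.19 to 0.25, and for the degrading enzymes from 0.43 to 0.62.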
